A study of Mus musculus with 4 samples.

Results

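Guanylate-binding proteins (GBPs) are large interferon-inducible GTPases, and 9 of their mouse genes are described here: Gbp2, Gbp2b, Gbp3, Gbp4, Gbp5, Gbp6, Gbp7, Gbp8 and Gbp9. They were taken by gene symbol from a table of 19044 genes, and all 9 had a row. The series holds messenger RNA counts of regulatory T cells (Treg cells) from mouse spleen and peripheral lymph nodes, as 4 libraries with 1 library per combination of genotype and state. The WT mice carried a Cre recombinase fused to yellow fluorescent protein and driven by Foxp3, the gene that defines Treg cells. The other mice carried the same Foxp3-YFP-Cre together with loxP-flanked Ripk1 alleles (Ripk1fl/fl), a design meant to limit recombination to cells that express Foxp3. Their libraries are labelled Ripk1 knockout. All cells are given as untreated. Each genotype gave an rTreg and an aTreg library, names that usually mean resting and activated Treg cells in this field. The labels used here give neither the age, sex or number of the mice nor the sorting gate. RIPK1 is a kinase and scaffold in death-receptor signalling, and the comparison of genotypes asks what its loss changes in Treg cells.

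GBPs are among the most strongly interferon-gamma-induced proteins of mouse cells. Interferon-gamma binds IFNGR1 and IFNGR2, the kinases JAK1 and JAK2 pass the signal on, and transcription factors that include IRF1 drive GBP transcription. The proteins bind GTP, assemble on the membranes of vacuoles and bacteria, and help to expose microbial products to inflammasomes. They are best known in macrophages, and T cells also make them.

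The libraries held 17588754 to 20868319 counts. Levels are in CPM, counts divided by the TMM-scaled library total, and a library at 0 still allows 3 counts, or 0.143 to 0.17 CPM. There are no replicates, so brackets after a ratio of 2 libraries are 95% counting intervals only, and reads copied by PCR make them too narrow. Ripk1 itself was at 83.6 CPM (rTreg) and 77.5 (aTreg) in WT and at 84.7 (rTreg) and 80.8 (aTreg) in the libraries labelled knockout (edgeR adjusted p = 0.675). The count over the whole gene thus showed no loss, and the labels do not name the deleted exons. The libraries are called KO-labelled throughout, and every direction below rests on that label. Of the Treg markers, Foxp3 was between 619 and 694 CPM and the 6 markers together between 3071 and 3430 CPM. Xist was at 299 and 338 CPM in the WT libraries and at 0.284 and 0.213 in the KO-labelled ones, while the Y-linked Ddx3y was between 97.5 and 126 CPM in all 4. Sex and genotype cannot be told apart here.

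The family lies in 2 clusters. By GENCODE M21 on GRCm38, the build the submitters name, Gbp5, Gbp7, Gbp3, Gbp2b and Gbp2 lie in this order on the plus strand of chromosome 3 between 142493978 and 142638008. Gbp8, Gbp9, Gbp4 and Gbp6 lie on the minus strand of chromosome 5, with Gbp10 and Gbp11, between 105014150 and 105346472. All 9 members are protein coding. Gbp11 is annotated as a polymorphic pseudogene and, like Gbp10, is not among the 9.

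Close relatives can exchange reads, so the annotated transcripts were cut into every 50-base stretch and compared with all other genes. Of these stretches, 70.7% of Gbp6 occurred in another gene, mostly the overlapping gene model Gm43302 (65%) and Gbp10 (45.9%). Gbp8 shared 18.1% and Gbp7 12.7%, the latter mostly with the pseudogene Gm43802 (10.5%). The other 6 members shared between 1.44% (Gbp5) and 8.05% (Gbp9). Gbp2 and Gbp2b shared 2.03% and 1.84% of their stretches with each other and none at 100 bases. Gbp6 is therefore the member whose separate count is least certain. Exons of Gbp4, Gbp8 and Gbp9 overlap by 60 or 61 bases on the same strand.

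RefSeq promoter windows (GRCm38.p6, plus strand, 250 bases before to 50 after the start) were given only for the 5 chromosome 3 members. They were searched on both strands for a spelling of the interferon-stimulated response element (ISRE), which complexes with IRF proteins bind: GAAA, any 2 bases, GAAA again and a C. A spelling of the gamma-activated site (GAS), TTCNNNGAA, was searched as well. The 60 bases around each ISRE-like match are shown, with the match in capitals, and it reads on the opposite strand in each. Gbp2b had a match only to the shorter spelling without the last C, which was searched after its sequence had been seen and lies within the longer one.
Gbp5, chr3:142496743-142496802: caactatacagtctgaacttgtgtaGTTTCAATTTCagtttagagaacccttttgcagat
Gbp7, chr3:142530257-142530316: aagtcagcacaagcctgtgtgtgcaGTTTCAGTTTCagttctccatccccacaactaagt
Gbp3, chr3:142559976-142560035: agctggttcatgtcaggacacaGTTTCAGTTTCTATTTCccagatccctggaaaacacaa
Gbp2b, chr3:142594685-142594744: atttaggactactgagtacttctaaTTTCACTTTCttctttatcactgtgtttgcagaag
Gbp2, chr3:142620578-142620637: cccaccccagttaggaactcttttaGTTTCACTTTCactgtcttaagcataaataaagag

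The long spelling was found in 4 of the 5 members, Gbp2, Gbp3, Gbp5 and Gbp7, against 0.944% of all 27025 genes with a window. Gbp3 holds it in 2 overlapping copies in 1 of its 2 windows, and the other window holds no match. The match begins 60 bases before the start in Gbp2, 54 in Gbp7, 46 in Gbp3 and 166 in Gbp5. The shorter spelling was in all 5, against 3.99% of genes, at 137 bases before the start in Gbp2b. The GAS-like spelling occurred in Gbp5 and Gbp7, 2 times each, against 9.55% of genes, and does not overlap the ISRE-like matches in either. A match is a description of letters, and binding was not measured. No windows were given for Gbp4, Gbp6, Gbp8 and Gbp9, so the clusters could not be compared.

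The family summed to 1088 CPM (rTreg) and 1184 (aTreg) in WT and to 2581 (rTreg) and 2088 (aTreg) in the KO-labelled libraries. Both KO-labelled libraries were above both WT libraries. In bulk samples, more cells that express a gene and more RNA per cell cannot be told apart. The family total was 2.37-fold higher in KO-labelled than WT rTreg, a log2 ratio of 1.25 [1.22 to 1.27], and 1.76-fold higher in aTreg, 0.82 [0.80 to 0.84]. The chromosome 3 members together were 3.30-fold higher in rTreg and 2.30-fold in aTreg, and the chromosome 5 members 1.81-fold and 1.38-fold. The chromosome 3 members took 37.9% and 42.0% of the family's counts in WT rTreg and aTreg, and 52.7% and 54.7% in the KO-labelled libraries.

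**Figure D1:**
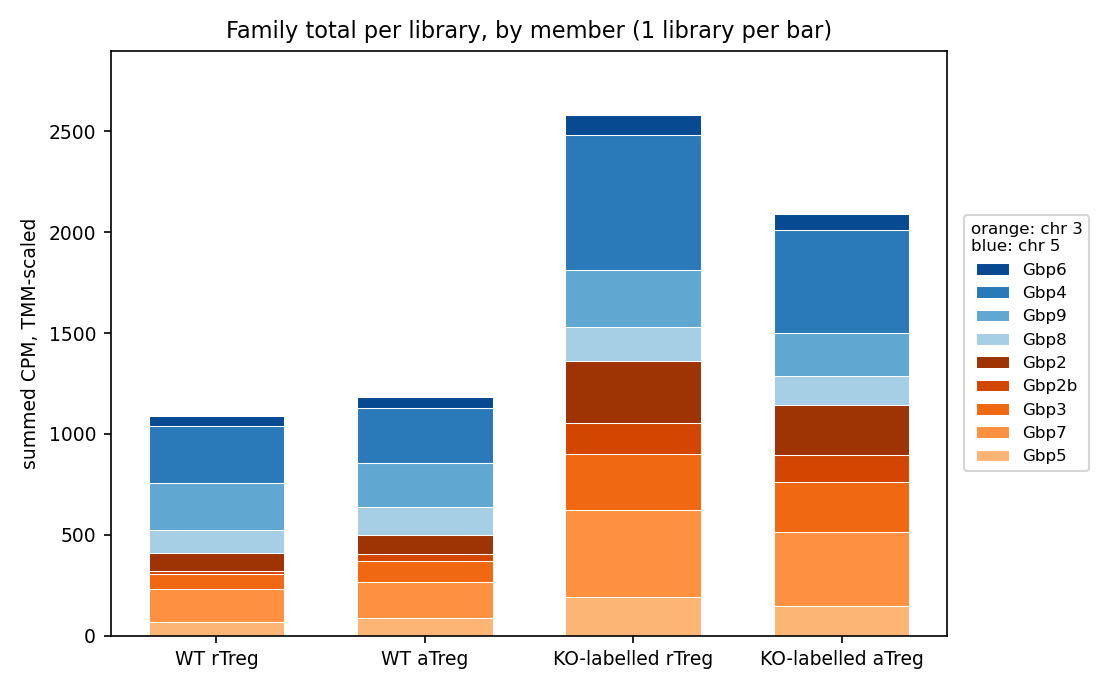
Summed CPM of the 9 GBP genes (vertical axis) in each of the 4 libraries, 1 library per bar, split by member, with chromosome 3 members in orange and chromosome 5 members in blue. The bars reach 1088 and 1184 CPM in WT rTreg and aTreg and 2581 and 2088 in the KO-labelled libraries, and the orange part grows from 37.9% to 52.7% of the bar in rTreg.

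For genotype, edgeR's quasi-likelihood test with state as a further term called 8 of the 9 members higher in the KO-labelled libraries and none lower, at an adjusted p of 0.05 over all 9680 genes tested. Of all tested genes 24.5% were called higher and 22.9% lower, 47.4% in either direction. This test compares the genotypes within each state. Its 1 residual degree of freedom is the difference of the genotype ratio between the states, joined with a prior of 11.8 shared among genes. It thus holds no replicate error. The median log2 change of the members was 1.11, against 0.00 over all tested genes. A gene entered the test when its level averaged 5 CPM or more, which all 9 members did. In rTreg 7 members were at least 2-fold higher, against 3.41% of tested genes, and in aTreg 4 were, against 3.95%. None was at least 2-fold lower in either state, against 1.34% and 2.17%. Gbp6 in rTreg and Gbp7 in aTreg were close to 2-fold, at log2 ratios of 1.05 and 1.02. With upper-quartile factors they were at 0.996 and 0.981, below it.

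**Figure D2:**
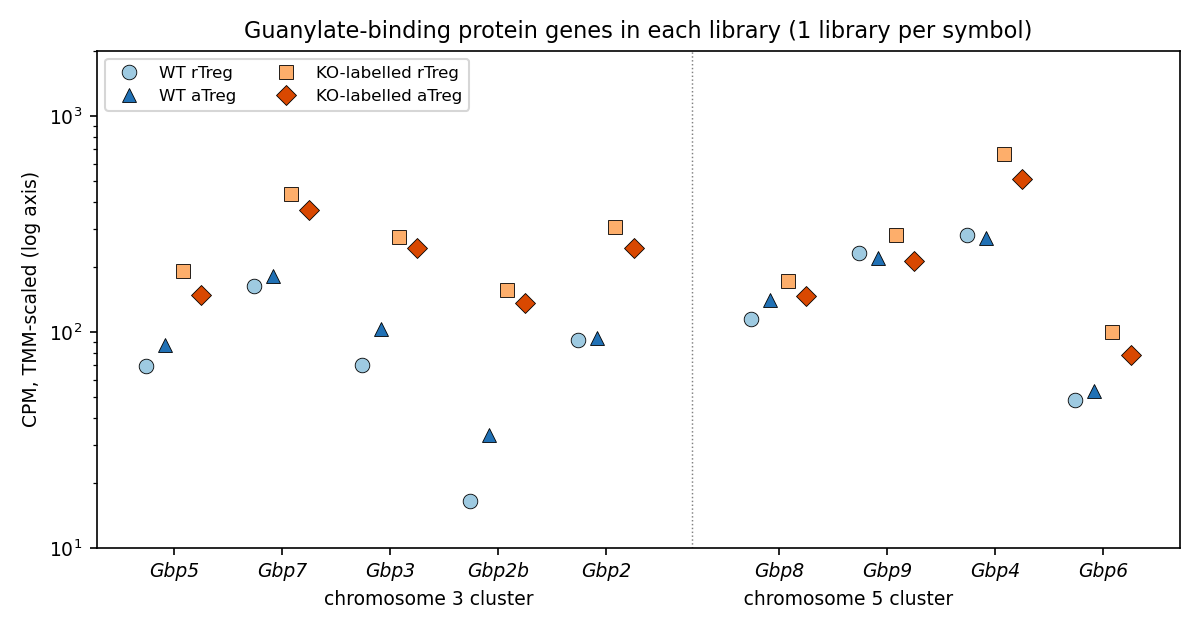
CPM of each GBP gene (log axis) in the 4 libraries, 1 symbol per library, ordered by position within the chromosome 3 and chromosome 5 clusters. Squares and diamonds are KO-labelled libraries, circles and triangles WT libraries. Gbp2b runs from 16.4 CPM in WT rTreg to 156 in KO-labelled rTreg. Gbp9 is at 213 CPM in KO-labelled aTreg, below WT rTreg at 232 and WT aTreg at 220.

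Gbp2b, once named Gbp1, had the largest genotype difference of the family. Its level in WT was 16.4 CPM in rTreg and 33.4 in aTreg, from 345 and 687 counts, and in the KO-labelled libraries 156 in rTreg and 136 in aTreg, from 2747 and 2561 counts. The genotypes were far apart, and within WT the aTreg library was about 2.02-fold above rTreg. The KO-labelled level was 9.43 times the WT level in rTreg (log2 3.24 [3.08 to 3.41]) and 4.08 times in aTreg (2.03 [1.91 to 2.16]). Over both states the rise was 2.61 on the log2 scale (SE 0.190, edgeR adjusted p = 4.2e-07).

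Gbp2, which is lipid-modified and coats parasite vacuoles, was at 91.8 CPM in WT rTreg and 93.6 in WT aTreg, and at 304 and 245 in the KO-labelled rTreg and aTreg libraries. Levels below are given in this order. The WT libraries lay close together and both KO-labelled libraries well above them. Its genotype ratio was 1.73 [1.65 to 1.80] in rTreg and 1.39 [1.31 to 1.47] in aTreg on the log2 scale, and it rose by 1.56 (SE 0.0800, edgeR adjusted p = 4.17e-08). Counted together with Gbp2b as 1 gene, the pair rose by 1.84 (SE 0.0967, edgeR adjusted p = 8.05e-08).

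Gbp3, another of the GBPs that gather on pathogen vacuoles, was at 70.3, 103, 274 and 245 CPM. Here the WT aTreg library stood above WT rTreg, and the KO-labelled libraries above both. The log2 genotype ratio was 1.96 [1.88 to 2.05] in rTreg and 1.26 [1.18 to 1.33] in aTreg (change 1.61, SE 0.120, edgeR adjusted p = 4.91e-07).

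Gbp7, a GBP tied to assembly of the phagocyte oxidase, was at 164, 181, 434 and 367 CPM. Its pattern was that of Gbp2, with the genotypes apart and the WT libraries near each other. The log2 genotype ratios were 1.41 [1.35 to 1.47] and 1.02 [0.96 to 1.08], and it rose by 1.22 (SE 0.0830, edgeR adjusted p = 2.67e-07). Gbp5, which promotes assembly of the NLRP3 inflammasome, was at 69.8, 86.9, 191 and 149 CPM. Its ratio was larger in rTreg, 1.45 [1.37 to 1.54], than in aTreg, 0.77 [0.69 to 0.86], with a rise of 1.11 (SE 0.117, edgeR adjusted p = 8.16e-06).

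The chromosome 5 members ranged from a rise close to that of Gbp5 to no call. Gbp4, the member with the most counts, has been described as a negative regulator of IRF7. It was at 281, 272, 667 and 508 CPM, with log2 genotype ratios of 1.25 [1.20 to 1.29] and 0.90 [0.85 to 0.95]. It rose by 1.07 (SE 0.0803, edgeR adjusted p = 5.07e-07). Both KO-labelled libraries were far above both WT libraries, as in the chromosome 3 cluster.

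Gbp6 was at 48.5, 53.2, 100.3 and 78.2 CPM and rose by 0.80 (SE 0.102, edgeR adjusted p = 3.68e-05). Counted together with Gbp10 as 1 gene, the pair rose by 0.76 (SE 0.0961, edgeR adjusted p = 4.43e-05). This sum is not sensitive to how reads were split between the pair. Gm43302 had no row in the counts. The sum does not cover reads given to it or left uncounted, so the count of Gbp6 remains uncertain. Gbp10 was at 29.9, 28.7, 56.4 and 38.7 CPM and rose by 0.68 (edgeR adjusted p = 0.000357). Gbp11 was at 6.58, 4.86, 16.8 and 9.01 CPM and rose by 1.15 (edgeR adjusted p = 0.000330). Thus both further genes of the cluster were also higher in the KO-labelled libraries.

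Gbp8 and Gbp9 stood apart from the rest of the family. Gbp8 was at 114, 141, 172 and 146 CPM, and its KO-labelled aTreg library was near WT aTreg. Its log2 genotype ratio was 0.59 [0.52 to 0.67] in rTreg and 0.05 [−0.03 to 0.12] in aTreg. It rose by 0.32 (SE 0.0996, edgeR adjusted p = 0.0183), a call lost with DESeq2 (adjusted p = 0.0816) and with no minimum level (edgeR adjusted p = 0.0640).

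Gbp9 was at 232, 220, 282 and 213 CPM, so the genotypes overlapped. Its ratio was 0.28 [0.22 to 0.34] in rTreg and −0.05 [−0.11 to 0.02] in aTreg, and its change of 0.12 (SE 0.0767) did not pass (edgeR adjusted p = 0.221). In the authors' deposited table, 7 of the 9 members are higher in the KO-labelled libraries at an adjusted p under 0.05. Of all genes there, 9.61% are. The column headers do not say how that comparison treated the 2 states. The exceptions in the authors' deposited table are Gbp8 (adjusted p = 0.187) and Gbp9 (0.670).

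Levels of different genes can be set side by side only per length, here CPM per kilobase of merged GENCODE exons. In WT rTreg the order was Gbp9 (44.9), Gbp4 (37.6), Gbp2 (36.5), Gbp8 (33.1), Gbp7 (29.1), Gbp3 (21.5), Gbp5 (10.5), Gbp6 (8.14) and Gbp2b (5.82). Gbp2b was thus the lowest member per length, and Gbp9 the highest. In KO-labelled rTreg the order became Gbp2 (121), Gbp4 (89.0), Gbp3 (83.9), Gbp7 (77.3), Gbp2b (55.2), Gbp9 (54.5), Gbp8 (49.995), Gbp5 (28.8) and Gbp6 (16.8). Without replicates, neighbours in these orders, such as Gbp4 and Gbp2 in WT or Gbp2b and Gbp9 in the KO-labelled library, cannot be said to differ.

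In aTreg the per-length order was headed by Gbp9 (42.5) and Gbp8 (40.9) in WT and by Gbp2 (97.5) and Gbp3 (75.2) in the KO-labelled library. In WT aTreg, Gbp2b, at 11.8, was above Gbp6 at 8.93. The 2 members that headed the order in WT aTreg were the 2 with the smallest genotype ratios.

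The genotype ratio was smaller in aTreg than in rTreg for all 9 members, as it was for 49.9% of tested genes. Gbp2b differed most, by −1.21 log2 units [−1.41 to −1.01], followed by Gbp3 at −0.70 [−0.82 to −0.59] and Gbp5 at −0.68 [−0.80 to −0.56]. Gbp9 differed least, at −0.33 [−0.41 to −0.24]. The counting interval lay below 0 for all 9, as it did for 16.9% of tested genes, and the median was −0.49 against 0.00 over all tested genes. With 4 libraries this difference between states has no test.

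**Figure D3:**
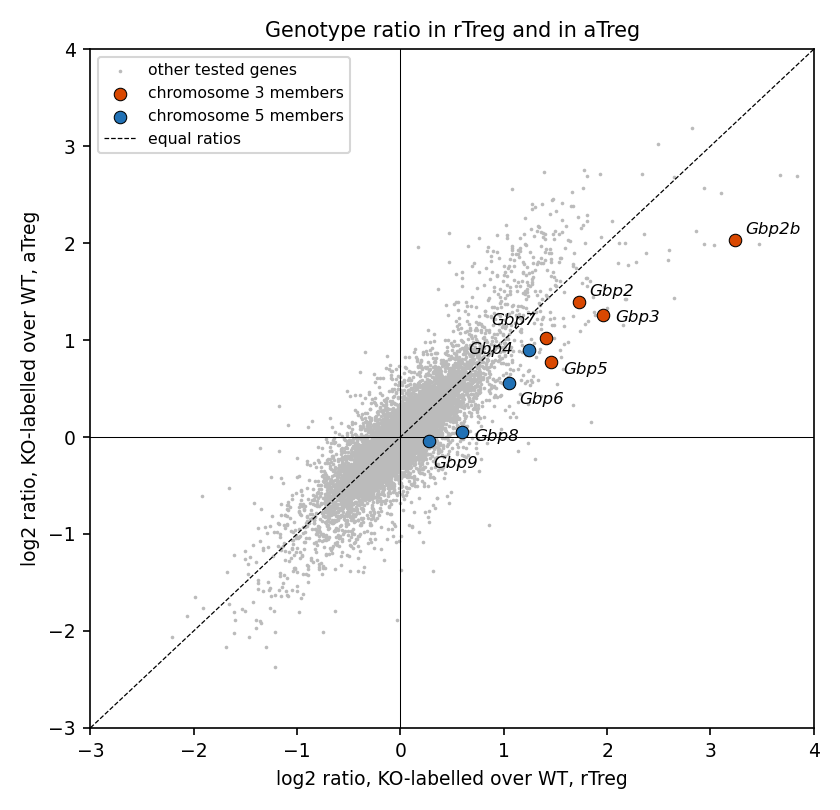
Log2 ratio of KO-labelled over WT in rTreg (horizontal) and in aTreg (vertical), with GBP genes coloured by cluster and the other tested genes in grey, of which 9 lie outside the axes; the dashed line marks equal ratios. All 9 members lie below the dashed line, from Gbp9 near the origin (0.28 and −0.05) to Gbp2b (3.24 and 2.03).

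The same counts can be read as a difference between states. In WT, 6 members were higher in aTreg than in rTreg with a counting interval above 0, as were 25.4% of tested genes. Gbp2b had a log2 ratio of 1.02 [0.83 to 1.21], Gbp3 0.55 [0.45 to 0.64], Gbp5 0.32 [0.22 to 0.42] and Gbp8 0.30 [0.23 to 0.38]. Gbp7 (0.14 [0.08 to 0.21]) and Gbp6 (0.13 [0.01 to 0.26]) were closer to 0. For Gbp2 (0.03 [−0.06 to 0.12]) and Gbp4 (−0.05 [−0.10 to 0.01]) the interval held 0, and Gbp9 was lower, at −0.08 [−0.14 to −0.02].

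In the KO-labelled pair all 9 members were lower in aTreg than in rTreg, as were 49.3% of tested genes. The log2 ratios ran from −0.16 [−0.22 to −0.10] for Gbp3 to −0.41 [−0.47 to −0.35] for Gbp9, and every interval lay below 0, against 23% of tested genes. In WT 7 members had a ratio above 0, as did 50.2% of tested genes, and these 7 were above 0 in WT and below 0 in the KO-labelled pair, as were 15.3% of tested genes. The pairs share no library. Beyond 2-fold, only Gbp2b was higher in WT aTreg, against 1.87% of tested genes, and none was lower (0.723%). The log2 ratio of Gbp2b was 1.02, and 0.999 with upper-quartile factors. In the KO-labelled pair no member was 2-fold apart, against 0.95% of tested genes higher and 0.134% lower.

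**Figure D4:**
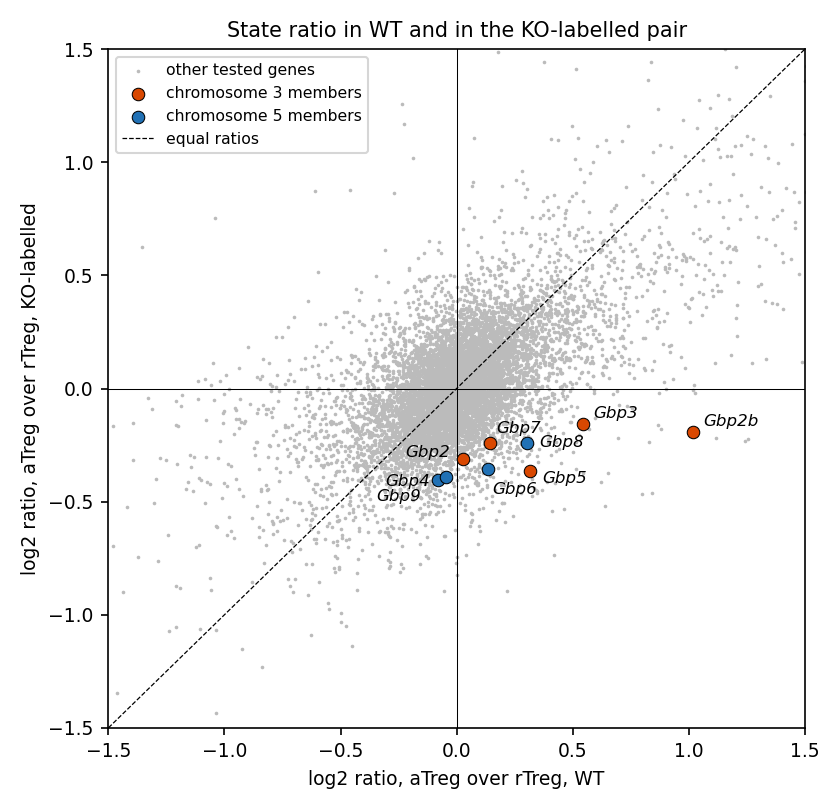
Log2 ratio of aTreg over rTreg in WT (horizontal) and in the KO-labelled pair (vertical), with GBP genes coloured by cluster and the other tested genes in grey, of which 72 lie outside the axes; the dashed line marks equal ratios. All 9 members lie below 0 on the vertical axis, and they spread from −0.08 (Gbp9) to 1.02 (Gbp2b) on the horizontal axis.

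Averaged over genotype, edgeR's additive test called none of the 9 members for state, against 13.2% of all tested genes (7.87% higher and 5.3% lower in aTreg). At an unadjusted p under 0.05 there were 2, Gbp4 and Gbp9, where 2576 of the 9680 tested genes were. DESeq2 also called none of the 9, against 4.37% of tested genes. Gbp9 was called lower under 3 other settings, with edgeR adjusted p values of 0.0349 to 0.0404. Gbp9 had the largest negative estimate, −0.24 (SE 0.0767, edgeR adjusted p = 0.0555), and Gbp2b the largest positive one, 0.32 (SE 0.184, edgeR adjusted p = 0.296), which turned to −0.020 without the genotype term. Outside the 9, Gbp11 fell in aTreg by 0.71 (SE 0.191, edgeR adjusted p = 0.0265). This test averages the 2 genotypes, whose state ratios had opposite signs for 7 members.

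Genes of the interferon-gamma pathway give the setting of these values. Ifng, the ligand, was at 3.29, 6.85, 12.9 and 28.9 CPM, from 69, 141, 228 and 542 counts. It was higher in each KO-labelled library than in both WT libraries and rose with genotype by 2.04 on the log2 scale (SE 0.165, edgeR adjusted p = 9.64e-07). Unlike the GBP genes it was higher in aTreg than in rTreg in both genotypes, and it rose with state by 1.12 (SE 0.162, edgeR adjusted p = 0.000548).

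The receptor chains went apart. Ifngr1 was at 215, 282, 351 and 400.1 CPM and rose by 0.60 (edgeR adjusted p = 1.4e-05), and Ifngr2 was at 49.6, 37.2, 36.1 and 25.6 CPM and fell by 0.50 (edgeR adjusted p = 0.000814). Irf1, a transcription factor that acts at GBP promoters, was at 425, 385, 725 and 550.1 CPM and rose by 0.64 (edgeR adjusted p = 1.66e-05). For Irf1 the KO-labelled rTreg library was the highest of the 4. A link between Irf1 and the GBP levels was not tested.

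Of 15 tested genes on the ligand, receptor and signalling list, 10 rose with genotype and 2, Ifngr2 and Jak1, fell, where 24.5% of all tested genes were called higher and 22.9% lower. Their median log2 change was 0.27. The largest rise after Ifng was that of the transcription factor gene Irf8 (1.33). Socs3, Ptpn2 and Nlrc5 did not pass. DESeq2 called 6 higher and 2 lower, against 14.2% and 12% of all tested genes. Without the state term edgeR called 4 and none, against 9.71% and 7.24%. With upper-quartile scaling 21.2% of all tested genes were called higher and 27.6% lower. These shares also apply to the genotype counts of the lists below.

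Immunity-related GTPases, a further interferon-induced family that acts with GBPs on vacuole membranes, had 7 tested genes. Of these, 6 rose and 1, 9930111J21Rik1, fell by 0.30, against 24.5% and 22.9% of all tested genes. The median log2 change was 1.04. DESeq2 called 5 higher and none lower, and upper-quartile scaling gave 5 and 1. Igtp was at 231, 227, 647 and 505 CPM and rose by 1.32 (edgeR adjusted p = 1.3e-07). Iigp1 was at 63.9, 58.9, 295 and 201 CPM and rose by 1.99 (edgeR adjusted p = 1.9e-08). Tgtp1 rose by 1.47 and Irgm1 by 1.04, and Tgtp1 and Tgtp2 are near-identical copies whose reads cannot be separated with certainty. With state, 4 of the 7 fell in aTreg and none rose, against 5.3% and 7.87% of all tested genes. DESeq2 called none for state, against 4.37%.

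Genes that act beside or after GBPs moved in part. Of 5 tested inflammasome genes, 3 rose with genotype and none fell, against 24.5% and 22.9% of all tested genes. Without the state term 1 was called higher, and with upper-quartile scaling 3 higher and 1 lower. The caspase-1 gene Casp1 was at 8.53, 15.7, 31.5 and 38.6 CPM and rose by 1.56 (edgeR adjusted p = 2.77e-06). Casp4, the mouse caspase-11 gene, which senses lipopolysaccharide, was at 9.05, 16.4, 25.5 and 38.6 CPM and rose by 1.35 (edgeR adjusted p = 3.09e-06). Pycard, the inflammasome adaptor, rose by 0.51, while Gsdmd, the pore-forming protein, was between 78.9 and 87.1 CPM and did not pass. Nlrp3 had a single count in all, in KO-labelled aTreg (0.0533 CPM), and Aim2 did not pass (edgeR adjusted p = 0.116).

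Of 14 genes for ATG8 conjugation and prenylation, which help to place GBPs and immunity-related GTPases on membranes, 3 rose and 4 fell, shares close to the 24.5% and 22.9% of all tested genes, with a median of 0.03. DESeq2 called 1 higher and 2 lower. Gabarap rose by 0.32 and Atg16l1 fell by 0.36. With upper-quartile scaling 1 rose and 4 fell, so the split depends on the scaling. Of 10 tested other dynamin-superfamily GTPases, the wider family of GBPs, 1 rose (Opa1, by 0.28) and 2 fell, the antiviral Mx1 by 0.67 and Mx2 by 0.62. These counts lie below the shares of all tested genes, and DESeq2 called none higher and 1 lower, as did edgeR without the state term. The atlastin genes Atl2 and Atl3, encoding close structural relatives of GBPs, had changes of −0.09 and −0.03 and did not pass.

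Of 12 tested type I interferon-stimulated genes, 3 rose and 7 fell with genotype, with a median of −0.31 where the GBP median was 1.11. Over all tested genes 24.5% rose and 22.9% fell. DESeq2 called 2 higher and 4 lower, and edgeR without the state term 2 and 1. Oasl1 fell by 1.49 (edgeR adjusted p = 1.93e-05) and Rsad2 by 1.0 (edgeR adjusted p = 0.000134), and Rtp4 rose by 0.71. With state, 9 of the 12 fell in aTreg and none rose, against 5.3% and 7.87% of all tested genes. DESeq2 called 1 for state, against 4.37%.

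**Figure D5:**
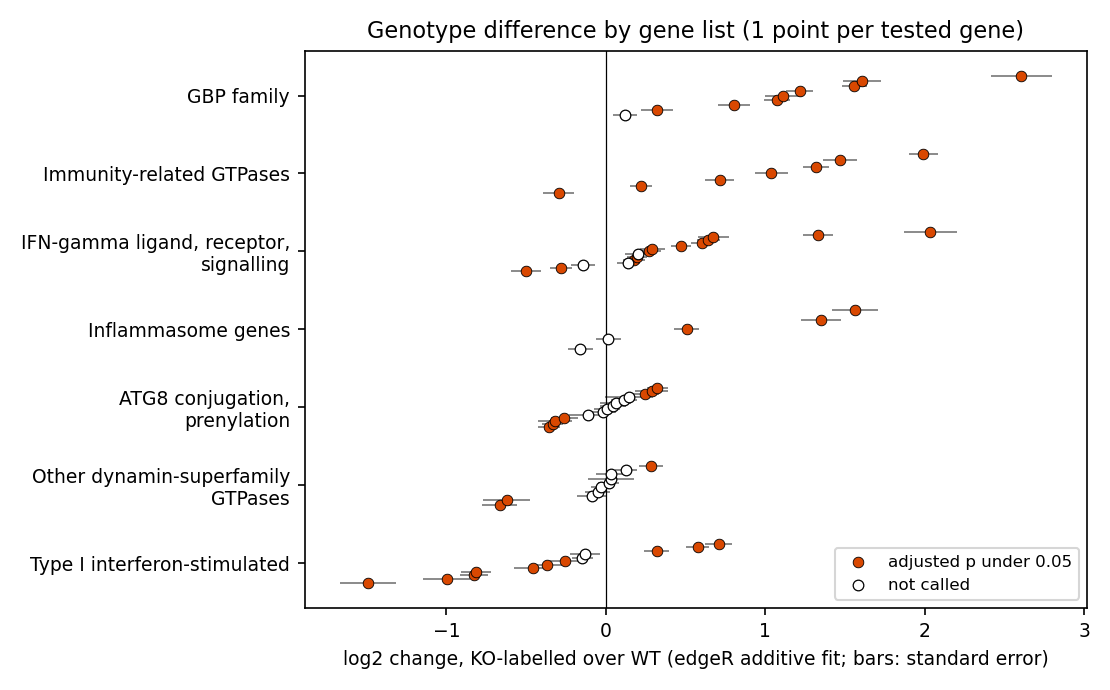
Log2 change of KO-labelled over WT (horizontal) for each tested gene of 7 gene lists, 1 point per gene with its standard error, filled where the edgeR adjusted p is under 0.05. The GBP genes lie between 0.12 and 2.61 with 8 filled points of 9, and the type I interferon-stimulated genes between −1.49 and 0.71.

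The genes nearest to the family's mean profile were found by the root-mean-square difference of log2 CPM, each centred over the 4 libraries. Ly6c2, a surface protein of the Ly6 family, was nearest, at 0.0566 log2 units, followed by the protease gene Tmprss13 (0.0597) and the cell cycle inhibitor Cdkn2c (0.105). Zfp808, Ssx2ip, Spo11, Slfn9 and Rbbp8 came next, at up to 0.122. Ly6c2 was at 6.19, 7.43, 17.5 and 15.2 CPM. For comparison, Gbp5 (0.0384) and Gbp7 (0.0538), which are part of that mean, lay close to it, and Gbp9 (0.536) and Gbp2b (0.784) farthest. The measure spans 4 libraries only.

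Markers of other cells that a sort could hold were also measured. The 7 macrophage and monocyte markers summed to 14.3 and 14.1 CPM in WT rTreg and aTreg and to 18.7 and 15.5 in the KO-labelled libraries. Most of this was Cd68, at 12.2 to 14.4 CPM. Adgre1 was at most 0.114 CPM and Fcgr1 at most 0.160, and Itgam was at 0.715, 0.291, 2.78 and 2.03 CPM. The 5 dendritic cell markers with a row summed to 1.19, 3.89, 5.45 and 7.94 CPM, and the 6 markers of NK and CD8 T cells to 13.7, 11.2, 20.9 and 17.9 CPM. Among them Itgax had 2, 0, 15 and 25 counts, H2-Aa 5, 18, 41 and 48, and Eomes 33, 12, 123 and 112. The 7 B cell markers, mostly Ighm, summed to 377, 635, 860 and 822 CPM, with the defining Ms4a1 at most 0.194. Igkc, at 1.0 and 1.51 CPM in WT and 20.7 and 16.0 in the KO-labelled libraries, rose with genotype as the GBP genes did. So did Cd74, at 20.3, 36.5, 92.8 and 98.2 CPM. Ighm, at 343, 579, 732 and 689 CPM, also rose, by 0.67 (edgeR adjusted p = 0.00137). Cd79b, at 8.77, 14.1, 11.4 and 12.9 CPM, did not pass (edgeR adjusted p = 0.646). Cd79a, too low to be tested, was at 3.72, 3.16, 3.52 and 5.22 CPM. Itgam, Itgax, H2-Aa and Eomes were too low to be tested and were also higher in both KO-labelled libraries than in both WT libraries. Other genes of these lists were not. Klrb1c had 13, 48, 5 and 26 counts, Klrd1 17, 3, 6 and 13, and Csf1r 9, 9, 6 and 3. The dendritic cell markers Xcr1 and Zbtb46 had 1, 29, 17 and 35 and 17, 32, 23 and 39 counts. The part of these genes in the GBP result was not tested.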

How the data were processed

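Messenger RNA was sequenced in 4 libraries (SMARTer kit, per the labels). The submitters' processing notes name HISAT2 2.2.1, featureCounts 2.0.1 and GRCm38. The sources used here do not give the annotation, the use of strand or the treatment of reads with several positions. The first deposited table holds read counts, not normalized by the authors. The second holds the authors' variance-stabilised values on a log2-like scale and a log2 fold change with its error. It also holds a mean normalised signal, a test score, and a p-value and adjusted p-value of the authors' genotype comparison, per the file headers.

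A mean of 5 CPM or more was required, which kept 9680 genes and all 9 members. Libraries were scaled by TMM in edgeR 4.0.16 (R 4.3.3). Log2 ratios used a prior count of 2. Genotype and state were tested as additive terms (glmQLFit and glmQLFTest, Benjamini-Hochberg over all tested genes, threshold 0.05), which leaves 1 residual degree of freedom against a prior of 11.8. The error is thus largely shared among genes. DESeq2 1.42.0 was an alternative. The scripts were tested on simulated counts. Intervals of a ratio are exact binomial, and those of a difference of ratios are normal on the log scale. Named genes are the 9 members, Gbp10, Gbp11, genes of the lists and the 8 nearest profiles. Members, lists and tests were chosen with earlier results of these data known. Lengths and positions come from GENCODE M21 and promoters from RefSeq. Single values of a few genes on the lists are not reported here.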

Additional observations from a re-analysis of the deposited data

Results flagged for a closer look

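Of the members, 7 were higher in aTreg than rTreg in WT and lower in the KO-labelled pair, as were 15.3% of tested genes. The log2 ratio of aTreg over rTreg in the KO-labelled pair minus that in WT was −1.21 for Gbp2b, −0.70 for Gbp3, −0.68 for Gbp5, −0.54 for Gbp8, −0.49 for Gbp6, −0.38 for Gbp7 and −0.34 for Gbp2. For Gbp2 the WT ratio of 0.03 [−0.06 to 0.12] had a counting interval that held 0. Gbp9 had genotype ratios of opposite sign in the 2 states, 0.28 in rTreg and −0.05 in aTreg, a difference of −0.33, and the aTreg interval held 0. With 1 library per combination none of these differences was tested.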

How the results depend on the processing

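The count of members called higher for genotype was 8 in the reported fit and 7 or 8 under the alternatives, and no member was called lower for genotype under any of them. The 1 call that was lost was that of Gbp8, with DESeq2 (adjusted p = 0.0816), with no minimum level (edgeR adjusted p = 0.0640) and without the state term (edgeR adjusted p = 0.173). For state, 1 member was called lower, against 0 in the reported fit, with upper-quartile factors, with library totals only and with a minimum of 1 CPM. That member was Gbp9, at edgeR adjusted p values of 0.0404, 0.0349 and 0.0391. Its adjusted p ranged from 0.0349 to 1.0 over all alternatives. The state estimate of Gbp2b, 0.32, turned to −0.020 without the genotype term and to −0.026 when Gbp2 and Gbp2b were summed, an alternative chosen after seeing the data. Without Gbp4, the family total's log2 ratio was 0.79 in place of 0.82 for genotype in aTreg, 0.18 in place of 0.12 for state in WT and −0.28 in place of −0.31 for state in the KO-labelled pair. The cause of these changes was not tested. None of the 36 member ratios changed sign under other scaling, a prior count of 0.5 or the deposited variance-stabilised values, where Gbp2b in rTreg was at 2.39 in place of 3.24. Over all genes, 4589 were called for genotype and 1275 for state, against 2527 and 423 with DESeq2. Without the other factor edgeR called 1641 for genotype and 0 for state (329 at an unadjusted p under 0.05), and with no minimum level 805 for state. No paired analysis was possible because the labels carry no replicate numbers to pair by. The reported genotype fit is itself blocked by state, and the fit without that term is given above. Leaving out a library leaves no residual degree of freedom for the additive model, so no such fit was made. The lowest member count was 345 (Gbp2b in WT rTreg), and the intervals hold counting error, not replicate error.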
